A study of Saccharomyces cerevisiae with 18 samples.

Results

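The Rad6 P47T strain was compared with the Rad6 E49K strain across all genes, 3 libraries against 3, which are 6 of the 18 RNA libraries of the study. The 6 libraries were chosen by their labels, which give the substitution carried by each strain. The study measured how gene expression in budding yeast (Saccharomyces cerevisiae) responds to changes in a beta-turn on the backside of Rad6. Every strain is labelled Mat a and carries ura3-52, trp1Δ and mutant alleles of HIS3 and LEU2. In the P47T strain the chromosomal RAD6 gene is deleted (rad6Δ::KanMX), and a centromeric plasmid with the TRP marker supplies Rad6 with proline 47 replaced by threonine and a 3V5 epitope tag. The E49K strain is the same except that glutamate 49 of the plasmid-borne, tagged Rad6 is replaced by lysine. Values of other strains are given for orientation. The rad6Δ strain carries the same chromosomal deletion with the vector pRS314, and the bre1Δ strain carries bre1Δ::KanMX with pRS314 and keeps its untagged chromosomal RAD6. The WT strain carries rad6Δ::KanMX and the plasmid with wild-type Rad6-3V5. Rad6 thus comes from a plasmid in P47T, E49K and WT alike, and the labels do not say how many transformants each strain represents. Cultures were grown at 30 °C in synthetic medium without tryptophan, which keeps the plasmid under selection.

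Rad6 is a ubiquitin-conjugating enzyme, which receives ubiquitin on a cysteine and hands it to substrates chosen by a ubiquitin ligase. With the ligase Bre1 it ubiquitinates histone H2B, a mark placed along transcribed genes and needed for methylation of histone H3 by the Set1 and Dot1 enzymes. With Ubr1 it marks N-degron proteins for the proteasome, and with Rad18 it modifies PCNA at stalled replication forks. The backside is the face of the enzyme turned away from the catalytic cysteine.

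Both substitutions lie in one short stretch of the protein of 172 residues, and the coding sequence is shown to place them. The reference sequence of codons 38 to 54 of RAD6 (YGL058W, R64 build, chromosome VII, 394097 to 394147, plus strand) is given 5′ to 3′, with the codons of residues 43, 47 and 49 in capitals.
RAD6 codons 38 to 54: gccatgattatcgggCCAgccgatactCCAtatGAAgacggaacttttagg
The first and second capital codons encode the prolines altered in the study's P43L and P47T strains, and the third encodes the glutamate altered in E49K. A single residue separates the sites of P47T and E49K, and the reference residue matched the labelled one at each site.

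The deposited counts summed to between 7233934 (P47T replicate 3) and 11396251 (P47T replicate 1) in the 6 libraries. RAD6, which served to check the labels, had 147, 162 and 178 CPM (counts per 1000000, over library totals scaled as below) in P47T, 167, 188 and 171 CPM in E49K, 149 CPM on average in WT and 4.29 CPM in rad6Δ. Over WT, the log2 fold change of RAD6 was 0.12 in P47T (edgeR adjusted p = 0.348) and 0.23 in E49K (edgeR adjusted p = 0.0499). The plasmid-borne gene was thus transcribed in both mutants, and the counts do not show the substitutions themselves. Of all counts, 18.3% ± 1.21 in P47T and 18.5% ± 0.529 in E49K fell on nuclear noncoding genes, and 1.09% ± 0.0692 in P47T and 1.13% ± 0.0820 in E49K fell on mitochondrial genes (SD, n = 3). In a principal component analysis of the 6 libraries the first component, with 53.6% of the variance, separated the strains. The second, with 24.0%, set P47T replicate 3 (-10.3) apart from P47T replicates 1 and 2 (7.00 and 3.54). Labels give mating type a for all strains, but the alpha-factor transcript MF(ALPHA)1 lay between 1207 and 1865 CPM in the 6 libraries, and the a-factor transcripts MFA1 and MFA2 together lay between 0.138 and 1.05 CPM.

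Of 5630 genes tested with edgeR's quasi-likelihood test, 1000 (17.8%) differed between P47T and E49K at an adjusted p under 0.05, and these are the genes called below. Of them, 530 (9.41% of all tested) were higher in P47T and 470 (8.35%) were lower. Most differences were small. The median absolute log2 fold change was 0.36 among called genes and 0.15 among all tested. Only 63 genes (1.12%) differed by at least 2-fold, of which 3 were higher and 60 lower in P47T. Many of those were scarce transcripts, since 43 of the 63 stayed under 10 CPM in both strains. The values of the strains did not overlap for 984 of the 1000 called genes, against 2084 of all 5630 (37.0%). All called genes were nuclear open reading frames. RNA was taken from whole cultures, so fewer cells with a transcript and less of it per cell cannot be told apart.

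With library totals in place of TMM scaling (trimmed mean of M-values, which corrects totals for a few very abundant genes) the split was 258 higher and 571 lower in P47T, against 530 and 470. Without E49K replicate 1 the counts were 279 higher and 288 lower, without P47T replicate 1 they were 351 higher and 312 lower, without E49K replicate 3 there were 337 higher, and without P47T replicate 3, the library that stood apart, there were 406 higher and 349 lower. In all, 416 genes were called in all 6 fits that left out 1 library.

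**Figure D1:**
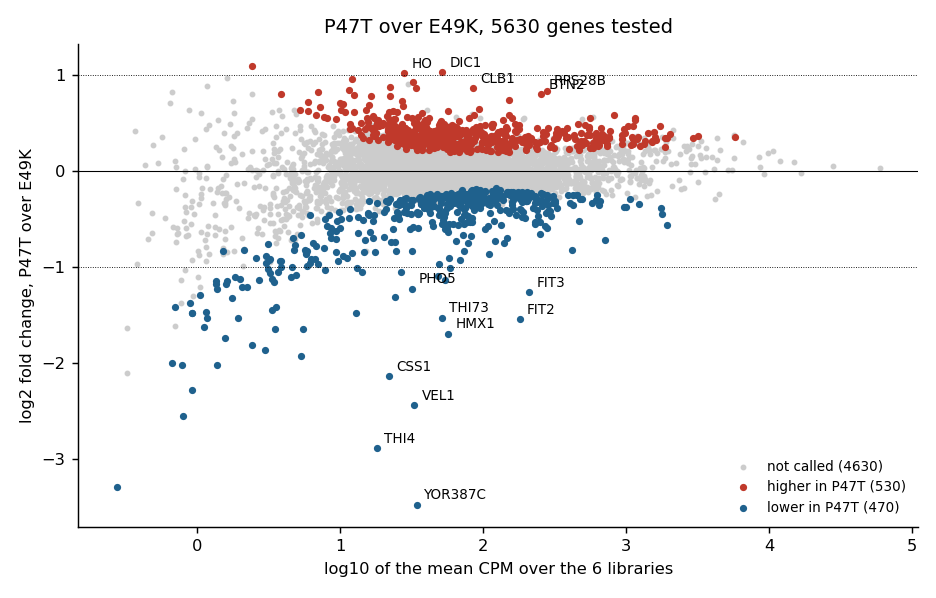
Log2 fold change of P47T over E49K (y axis) against the log10 of the mean CPM of the 6 libraries (x axis), 1 point for each of 5630 genes tested. Red points are the 530 genes called higher in P47T, blue points the 470 called lower, dotted lines mark a 2-fold difference, and called genes reach a log2 fold change of -3.48 on the lower side and 1.10 on the higher side.

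Among genes with a common name and at least 10 CPM in the higher strain, THI4, which encodes the enzyme that makes the thiazole ring of thiamine, differed most (the copy of VEL1 described next, YOR387C, differed more). It had 4.77, 3.54 and 4.48 CPM in P47T, against 33.3, 32.8 and 29.4 CPM in E49K. The groups were far apart, and P47T lay near WT, which averaged 5.46 CPM. The log2 fold change of THI4 (YGR144W, chromosome VII, 780399 to 781379) was -2.89 ± 0.15 (SE, edgeR adjusted p = 3.54e-11).

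VEL1, a gene induced by zinc depletion, had 8.40, 9.95 and 12.9 CPM in P47T, against 72.8, 29.9 and 64.9 CPM in E49K. Its log2 fold change was -2.44 ± 0.34 (edgeR adjusted p = 0.000352), with E49K replicate 2 well below the other E49K libraries. VEL1 and YOR387C are near-identical copies, so counts may be exchanged between them, and YOR387C is named here after its values were seen. The log2 fold change of YOR387C was -3.48 ± 0.43 (edgeR adjusted p = 0.000225). Their sum was 15.2, 15.5 and 17.2 CPM in P47T, 150, 60.3 and 147 CPM in E49K, and 1.23 to 1.66 CPM in rad6Δ. The summed values of P47T and E49K did not overlap.

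CSS1, a serine-rich cell surface protein, had 9.55, 9.29 and 5.18 CPM in P47T, against 35.8, 34.6 and 38.3 CPM in E49K, a log2 fold change of -2.14 ± 0.25 (edgeR adjusted p = 2.77e-05). E49K lay at the level of rad6Δ, which averaged 38.1 CPM, and P47T at that of WT, which averaged 8.02 CPM. DIP5, MCH5 and IMA5 were also among the 12 lowest fold changes. DIP5, the permease for aspartate and glutamate, averaged 6.80 ± 1.64 CPM in P47T and 19.3 ± 2.22 CPM in E49K. MCH5, the plasma membrane riboflavin transporter, averaged 30.7 ± 0.529 CPM in P47T and 65.7 ± 1.83 CPM in E49K. IMA5, an isomaltase, averaged 13.8 ± 0.526 CPM in P47T and 34.3 ± 2.84 CPM in E49K (SD, n = 3). PHO5 and PIR3 are given with their gene groups. All 12 of these genes were called higher in E49K than in WT, while 3 were called lower in P47T than in WT. The 12 were chosen by these same E49K and P47T values, so differences from WT in these directions follow in part from that choice.

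At the other end stood DIC1, the mitochondrial dicarboxylate carrier, with 67.6, 66.5 and 74.1 CPM in P47T, against 31.7, 36.5 and 33.4 CPM in E49K. WT averaged 52.0 CPM, between the mutants. DIC1 differed by a log2 fold change of 1.03 ± 0.10 (edgeR adjusted p = 2.49e-07). HO, the endonuclease that starts mating-type switching, had 41.7, 40.8 and 30.5 CPM in P47T, against 18.8, 18.0 and 19.2 CPM in E49K. For HO it was P47T that stood away from WT (15.9 CPM on average) and E49K that lay near it, and rad6Δ averaged 6.14 CPM. The log2 fold change of HO was 1.02 ± 0.13 (edgeR adjusted p = 1.07e-05). CLB1, a B-type cyclin of mitosis, had 107, 120 and 104 CPM in P47T, against 57.8, 59.9 and 64.3 CPM in E49K. For CLB1, E49K, rad6Δ and WT lay below P47T, with means of 60.7 CPM in E49K, 57.1 CPM in rad6Δ and 57.6 CPM in WT. The bre1Δ strain lay lower still, at 36.0 CPM on average.

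BTN2, which takes part in sequestering misfolded proteins, averaged 323 ± 35.8 CPM in P47T and 185 ± 24.5 CPM in E49K. RGS2, which dampens glucose-sensing G protein signalling, averaged 42.5 ± 4.46 CPM in P47T and 22.3 ± 4.33 CPM in E49K. WSC4, a membrane protein related to the cell wall sensors, averaged 28.8 ± 3.61 CPM in P47T and 15.8 ± 1.47 CPM in E49K. The rest of the 12 highest fold changes were SPR6, ERD1, RPS28B, SPO22, YHK8 and ALD3, with log2 fold changes from 0.78 (ALD3) to 0.96 (SPR6). Among the 12, 8 were called higher in P47T than in WT and 7 were called lower in E49K than in WT. P47T and E49K were compared with the same WT libraries, so these counts are not independent of each other. They also follow in part from the choice of the 12 by these same P47T and E49K values.

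**Figure D2:**
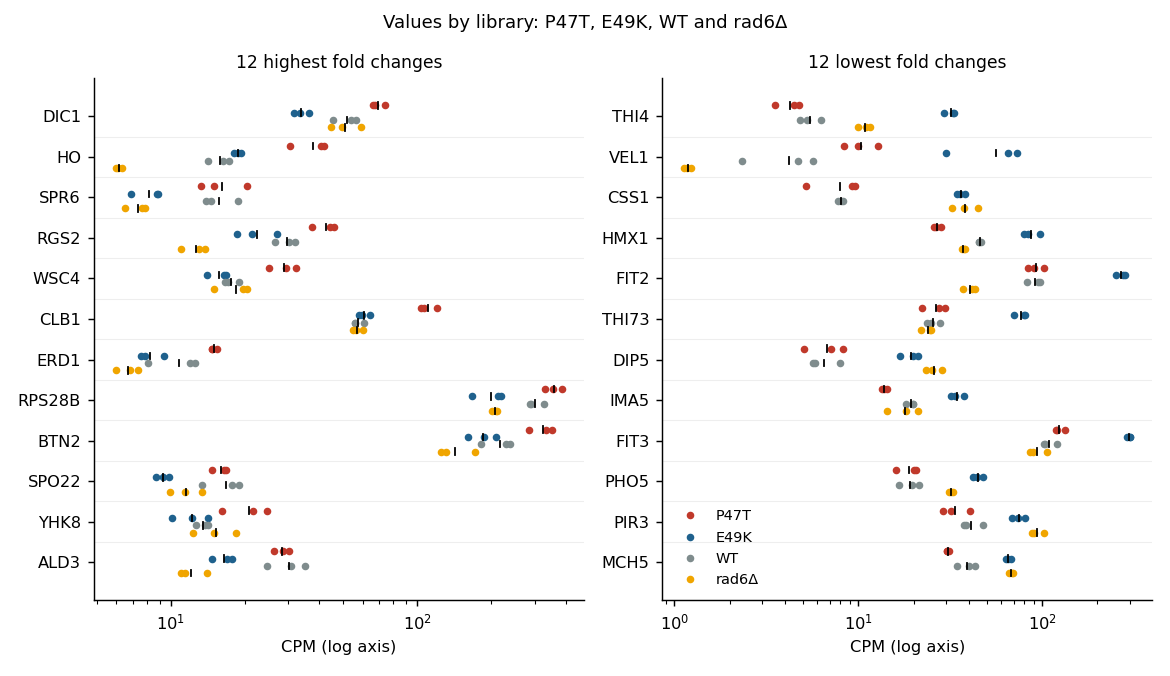
CPM (log axis) of the 12 genes with the highest and the 12 with the lowest fold changes of P47T over E49K, 1 point per library for P47T, E49K, WT and rad6Δ, with a black tick at each strain's mean. Genes were chosen for values that did not overlap, so in the right panel E49K lies above P47T for every gene. THI4 lies at 29.4 to 33.3 CPM in E49K against 3.54 to 4.77 CPM in P47T.

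The lists of genes described next were read against the shares over all genes tested, 9.41% higher and 8.35% lower, and a median log2 fold change of 0.01. No list was tested as a set.

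**Figure D3:**
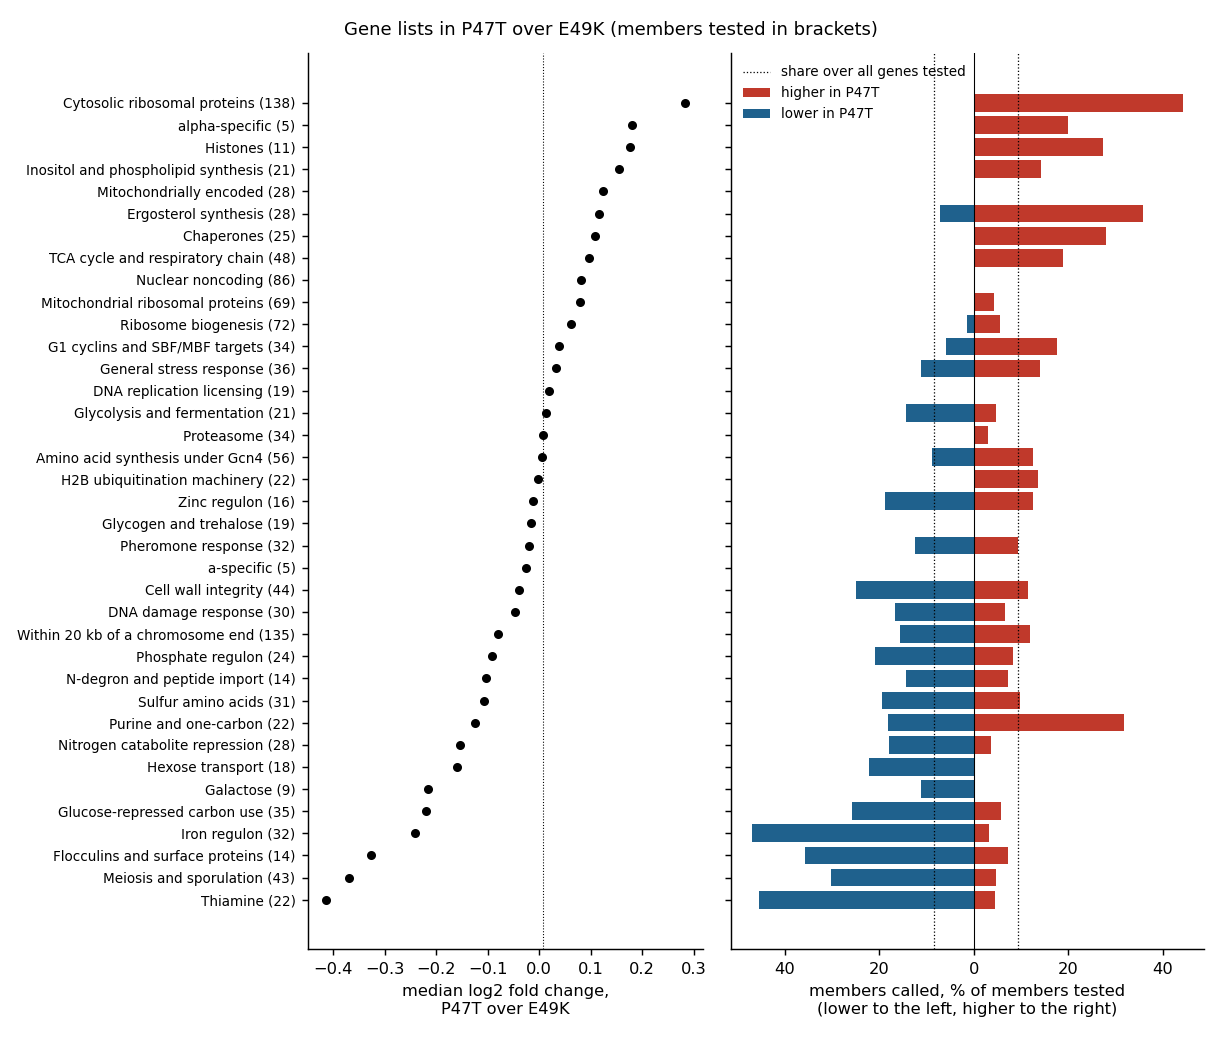
Gene lists ordered by the median log2 fold change of P47T over E49K of their tested members (left panel, points), with the percentage of tested members called higher (red, to the right) or lower (blue, to the left) in P47T (right panel, bars starting at 0), and dotted lines at the values over all genes tested. Cytosolic ribosomal proteins stand at one end, with 44.2% higher and a median of 0.28, and the thiamine, meiosis, surface protein and iron lists at the other, the thiamine list with 45.5% lower and a median of -0.41.

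Many genes for iron uptake were lower in P47T than in E49K. Of 32 tested members of the iron regulon list, 15 were called lower and 1 higher (46.9% and 3.13%), and the median log2 fold change was -0.24. Under iron shortage yeast raises these genes through the activators Aft1 and Aft2. The cell wall mannoproteins Fit2 and Fit3, which retain iron-siderophore complexes, were among the most different. FIT2 (YOR382W, chromosome XV, 1059531 to 1059992) had 103, 83.6 and 89.9 CPM in P47T, against 282, 251 and 275 CPM in E49K, with 92.0 CPM on average in WT. FIT3 had 133, 118 and 121 CPM in P47T, against 301, 302 and 291 CPM in E49K. Neither gene's values overlapped between the strains. The log2 fold changes were -1.55 ± 0.10 for FIT2 (edgeR adjusted p = 5.85e-10) and -1.26 ± 0.09 for FIT3 (edgeR adjusted p = 6.06e-09).

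HMX1, the heme oxygenase that releases iron from heme, had 25.8, 26.7 and 28.1 CPM in P47T, against 97.6, 79.8 and 83.5 CPM in E49K. It lay on both sides of WT, which averaged 45.8 CPM: its log2 fold change over WT was -0.78 in P47T (edgeR adjusted p = 2.63e-05) and 0.92 in E49K (edgeR adjusted p = 5.43e-07). P47T over E49K was -1.70 ± 0.10 for HMX1 (edgeR adjusted p = 5.10e-11). TIS11, which binds and destabilises mRNAs of iron-using proteins, averaged 47.8 ± 3.31 CPM in P47T and 90.7 ± 11.7 CPM in E49K. ARN1 and ARN2, transporters of iron-siderophore complexes, differed by log2 fold changes of -0.73 ± 0.09 and -0.75 ± 0.10. The transporter SIT1 and the surface reductases FRE1 and FRE5, named here after their values were seen, had log2 fold changes of -0.73, -0.84 and -0.86, and were called in all 6 fits that left out 1 library.

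High-affinity iron uptake through the oxidase Fet3 and the permease Ftr1, also named after their values were seen, did not pass the threshold. FET3 had 1202, 1208 and 1101 CPM in P47T, against 1286, 1301 and 1276 CPM in E49K (log2 fold change -0.14 ± 0.08, edgeR adjusted p = 0.271). FTR1 averaged 260 ± 15.9 CPM in P47T and 295 ± 9.05 CPM in E49K (edgeR adjusted p = 0.196). The member called higher in P47T was CTH1, a relative of TIS11, at 56.1 ± 0.780 CPM in P47T and 44.0 ± 1.41 CPM in E49K, likewise named after its values were seen. The iron list had 10 to 13 lower members when 1 library was left out, with the 10 found without E49K replicate 3.

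Stretches upstream of 4 of the iron genes are shown because they hold the letters TGCACCC, or GGGTGCA on the other strand, a core of the sequence that Aft1 binds. They are 120-base windows of the R64 reference, written 5′ to 3′ on the gene's own strand, with each match in capitals.
FIT2 (chromosome XV, 1059185 to 1059304, plus strand): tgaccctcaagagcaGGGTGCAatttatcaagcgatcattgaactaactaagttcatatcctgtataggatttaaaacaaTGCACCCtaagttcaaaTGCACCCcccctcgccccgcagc
FIT3 (chromosome XV, 1061227 to 1061346, minus strand): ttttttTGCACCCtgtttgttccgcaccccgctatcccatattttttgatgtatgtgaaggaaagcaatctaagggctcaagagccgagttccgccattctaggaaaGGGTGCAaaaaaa
HMX1 (chromosome XII, 554036 to 554155, minus strand): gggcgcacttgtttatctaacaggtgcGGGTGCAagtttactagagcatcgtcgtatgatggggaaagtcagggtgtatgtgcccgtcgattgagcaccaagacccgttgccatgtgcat
TIS11 (chromosome XII, 416806 to 416925, minus strand): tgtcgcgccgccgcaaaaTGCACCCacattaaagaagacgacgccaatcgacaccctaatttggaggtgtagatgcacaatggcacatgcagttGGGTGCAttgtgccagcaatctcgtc
Within 500 bases upstream of the start codon, either strand, these 7 letters occurred at 131 of 5514 tested nuclear genes (2.38%), at 27 of the 470 called lower in P47T (5.75%), and at 11 of the 530 called higher (2.08%). In the iron list they occurred at 21 of 32 genes (65.6%), and at 11 of its 15 genes lower in P47T (73.3%), a share near that of the whole list. These 11 genes are also counted among the 27, and no enrichment was tested. A match describes letters in a window and not binding.

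Thiamine genes also lay lower in P47T. Of 22 tested members, 10 were called lower and 1 higher (45.5% and 4.55%), with a median log2 fold change of -0.41. Besides THI4, these included THI73, a putative transporter of the plasma membrane, with 29.7, 27.4 and 22.1 CPM in P47T, against 70.1, 80.4 and 79.5 CPM in E49K. WT averaged 25.4 CPM, close to P47T, and the log2 fold change of THI73 was -1.53 ± 0.12 (edgeR adjusted p = 1.53e-08). THI2, an activator of the thiamine genes, averaged 52.7 ± 0.929 CPM in P47T and 93.9 ± 8.91 CPM in E49K. THI2 was lower than WT (79.6 CPM) in P47T and higher than WT in E49K, with log2 fold changes of -0.59 and 0.24 (edgeR adjusted p = 4.08e-05 and 0.0236). THI6, which joins the thiazole and pyrimidine parts of thiamine, averaged 87.5 ± 3.67 CPM in P47T and 130 ± 9.20 CPM in E49K. Several members are scarce or near-identical copies, such as the THI5 family, so their values are uncertain. The list had 6 lower members without P47T replicate 3, and 7 to 9 without any other single library. In a fit to only the 6 libraries 20 members were tested, 8 lower and none higher, with a median of -0.35.

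**Figure D4:**
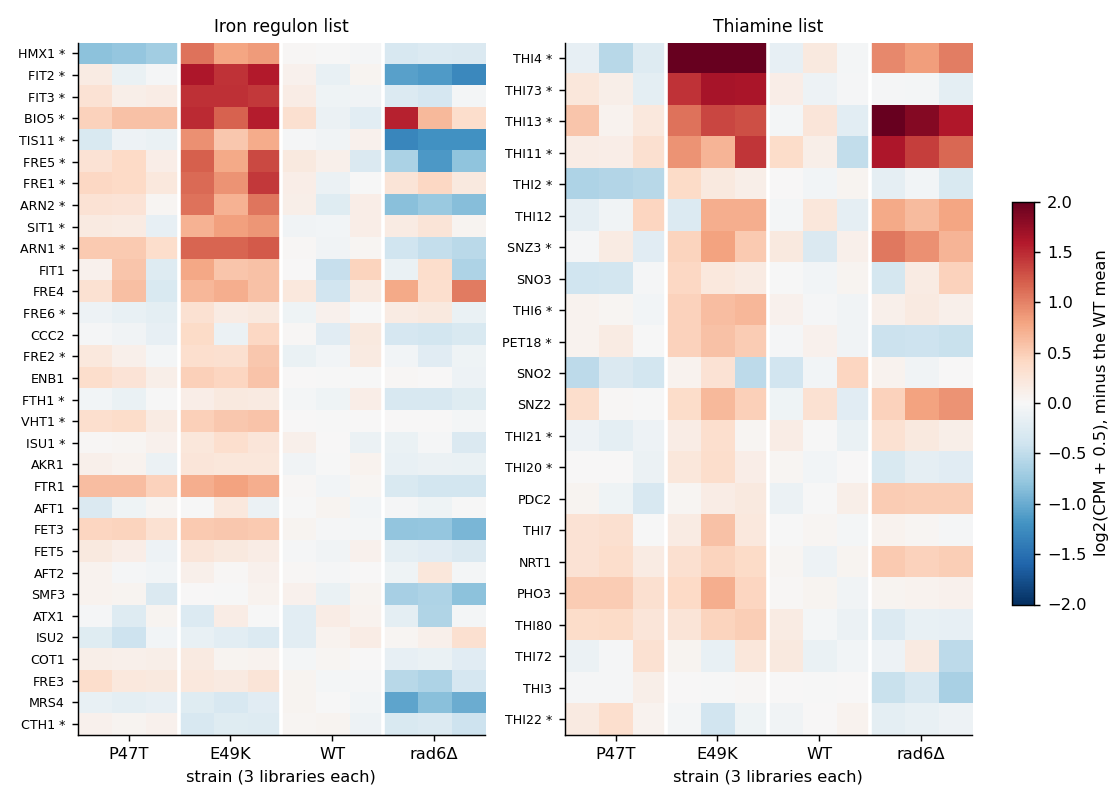
Each tested member of the iron regulon list (left) and the thiamine list (right) in the 12 libraries of P47T, E49K, WT and rad6Δ, coloured by log2(CPM + 0.5) minus the WT mean, with colours ending at -2 and 2. Asterisks mark genes called between P47T and E49K, and the upper rows are redder in the 3 E49K libraries than in the 3 P47T libraries.

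The zinc regulon, which the activator Zap1 raises under zinc shortage, moved in both directions. Of 16 tested members, 3 were lower (18.8%) and 2 higher (12.5%) in P47T, with a median of -0.01. ZPS1, a secreted metalloprotease-like protein, had 323, 296 and 287 CPM in P47T, against 596, 396 and 615 CPM in E49K (log2 fold change -0.83 ± 0.17, edgeR adjusted p = 0.00335). E49K replicate 2 was the lowest E49K library for ZPS1, as for VEL1. ZRT1, the high-affinity zinc transporter, averaged 2079 ± 98.6 CPM in P47T and 1641 ± 150 CPM in E49K, a log2 fold change of 0.34 ± 0.10 (edgeR adjusted p = 0.0169). That call was lost without P47T replicate 1, P47T replicate 2 or E49K replicate 2, with adjusted p of 0.0561, 0.0584 and 0.0849. ZRT3, which exports zinc from the vacuole, averaged 203 ± 11.1 CPM in P47T and 280 ± 45.3 CPM in E49K. The count of higher zinc genes was 0 without P47T replicate 2 or E49K replicate 2, and 1 without P47T replicate 1 or E49K replicate 3. The rad6Δ strain averaged 8.22 CPM for ZPS1 and 358 CPM for ZRT1, below P47T and E49K in each case.

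The phosphate list held PHO5, the secreted acid phosphatase, with 20.5, 20.1 and 15.96 CPM in P47T, against 47.5, 44.2 and 42.1 CPM in E49K. PHO5 averaged 19.2 CPM in WT and 32.0 CPM in rad6Δ, and its log2 fold change of P47T over E49K was -1.23 ± 0.10 (edgeR adjusted p = 2.56e-08). VIP1, an inositol pyrophosphate kinase, averaged 188 CPM in P47T and 277 CPM in E49K. In all 5 of 24 members were lower in P47T (20.8%) and 2 higher (8.33%), with a median of -0.09. Without P47T replicate 3 the lower count was 3. The high-affinity transporter PHO84 was scarce, at 0.764, 0.774 and 0.980 CPM in P47T and 1.51, 2.75 and 1.34 CPM in E49K. Its call (edgeR adjusted p = 0.0364) was lost when P47T replicate 1, P47T replicate 2, P47T replicate 3 or E49K replicate 2 was left out, with adjusted p of 0.115, 0.0991, 0.0564 and 0.211.

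Cytosolic ribosomal protein genes stood on the other side. Of 138 tested, 61 were called higher in P47T and none lower (44.2% and 0%), the median log2 fold change was 0.28, and 135 of the 138 fold changes were positive. RPS28B differed most, with 386, 355 and 332 CPM in P47T, against 167, 213 and 220 CPM in E49K. Its log2 fold change was 0.84 ± 0.14 (edgeR adjusted p = 0.000377), and the strains did not overlap. RPS27A had 368, 387 and 389 CPM in P47T, against 276, 276 and 290 CPM in E49K, a log2 fold change of 0.44 ± 0.08 (edgeR adjusted p = 0.000549). RPL22B and RPS6B had log2 fold changes of 0.39 each. Median log2 fold changes of the list over WT were 0.40 in P47T and 0.13 in E49K, over the same WT libraries.

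The number of ribosomal protein genes called depended on single libraries, with 15 higher without E49K replicate 1, 25 without P47T replicate 1, 33 without E49K replicate 3, 40 without P47T replicate 3, and 39 with library totals alone (1 lower). Many of these genes are pairs of near-identical copies, so the value of a single member is uncertain. Ribosome biogenesis factors, which build ribosomes in the nucleolus, were called higher for 4 of 72 members and lower for 1, shares of 5.56% and 1.39% that lie under those over all genes. The higher count of that list was 1 without E49K replicate 1 and 2 without E49K replicate 3. Mitochondrial ribosomal protein genes were called higher for 3 of 69, and for 1 without P47T replicate 3, without E49K replicate 1 or with library totals alone.

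Genes closest to the biochemistry of Rad6 differed little. In the list for H2B ubiquitination and the enzymes that read it, 3 of 22 were called higher in P47T (13.6%) and none lower. With so few genes these shares are not far from those over all genes. The median log2 fold change was -0.003. They were SWD1 and SWD3, subunits of the Set1 methyltransferase complex, and SUS1, a subunit of the deubiquitinating module of SAGA. SWD1 averaged 48.2 CPM in P47T and 38.1 CPM in E49K, SWD3 36.4 and 29.4 CPM in P47T and E49K, and SUS1 43.2 and 31.9 CPM in P47T and E49K. None of the 3 was called without E49K replicate 1, and 1 was called without P47T replicate 1, P47T replicate 3 or E49K replicate 3. BRE1 had 139, 143 and 140 CPM in P47T, against 122.6, 129 and 136 CPM in E49K (edgeR adjusted p = 0.248). RAD6 itself differed by a log2 fold change of -0.12 ± 0.09 (edgeR adjusted p = 0.390).

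In the N-degron branch, where Ubr1 with Rad6 degrades the repressor Cup9 and so opens the way for the peptide transporter gene PTR2, UBR1, CUP9 and PTR2 did not pass the threshold. PTR2 had 3.72, 6.53 and 2.94 CPM in P47T, against 4.96, 5.03 and 5.36 CPM in E49K, and 15.8 CPM on average in rad6Δ. Its strains overlapped, with a log2 fold change of -0.20 ± 0.24 (edgeR adjusted p = 0.609). Across the list, OPT2 and NTA1 were called lower in P47T and OPT1 higher, with log2 fold changes of -0.35, -0.23 and 0.36, out of 14 members. Of the 6 fits that left out 1 library, NTA1 lost its call in 4 and OPT1 in 5.

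Histone genes were called higher for 3 of 11 members, none lower, with a median of 0.18. Without P47T replicate 3 there were 4 higher and 1 lower, and without any other single library 2 or 3 higher and none lower. HTB2, a gene of histone H2B, had 266, 274 and 284 CPM in P47T, against 195, 211 and 197 CPM in E49K. The log2 fold change was 0.45 ± 0.08 for HTB2 (edgeR adjusted p = 0.00102) and 0.45 ± 0.09 for HHF1, a histone H4 gene (edgeR adjusted p = 0.00192). HTA1, an H2A gene, averaged 563 ± 79.2 CPM in P47T and 451 ± 63.2 CPM in E49K (edgeR adjusted p = 0.0411), a call lost in 4 of the 6 fits that left out 1 library. HTB1, the other H2B gene, averaged 382 CPM in P47T and 358 CPM in E49K, with overlapping libraries (edgeR adjusted p = 0.437). Paralogous histone genes are near-identical, which leaves their split uncertain.

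Inositol and phospholipid genes were called higher in P47T for 3 of 21 (14.3%, and 5 genes without P47T replicate 3) and lower for none. Their median was 0.15, and 16 of the 21 fold changes were positive. ITR1, the main inositol transporter, had 2176, 2176 and 2195 CPM in P47T, against 1733, 1701 and 1724 CPM in E49K (log2 fold change 0.34 ± 0.08, edgeR adjusted p = 0.00701). PSD1, the mitochondrial phosphatidylserine decarboxylase, averaged 178 CPM in P47T and 139 CPM in E49K, and EPT1, a phospholipid synthesis enzyme, 63.4 CPM in P47T and 51.1 CPM in E49K. INO1, which makes inositol phosphate, had 886, 840 and 725 CPM in P47T, against 899, 864 and 946 CPM in E49K, and 88.0 CPM on average in rad6Δ. P47T and E49K overlapped for INO1 (log2 fold change -0.14 ± 0.10, edgeR adjusted p = 0.315).

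Of 44 tested members of the cell wall integrity list, 11 were lower and 5 higher in P47T (25.0% and 11.4%), with a median of -0.04. PRM5, a target of the cell wall integrity kinase pathway, had 41.5, 36.3 and 39.9 CPM in P47T, against 80.6, 83.6 and 72.3 CPM in E49K. WT averaged 41.7 CPM, at the level of P47T, and the log2 fold change was -1.005 ± 0.08 (edgeR adjusted p = 3.88e-08). PIR3, a covalently bound wall protein, had 40.5, 31.9 and 29.0 CPM in P47T, against 68.8, 74.3 and 81.1 CPM in E49K. YPS3, an anchored aspartic protease, and PST1, an anchored wall protein, differed by log2 fold changes of -0.75 and -0.58. Among the 5 higher members, CWP1, a wall mannoprotein, and SCW11, a wall protein of daughter cells, had log2 fold changes of 0.63 and 0.40, and both are named here after their values were seen. Without P47T replicate 3 or E49K replicate 1 the list had 7 lower members, and without P47T replicate 2 it had 3 higher ones.

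Flocculins and other surface proteins, which make cells adhere, were lower in P47T for 5 of 14 (35.7%) and higher for 1 (7.14%). The median was -0.33. FLO1, the main flocculin, had 13.8, 12.7 and 11.1 CPM in P47T, against 21.5, 24.5 and 22.1 CPM in E49K (log2 fold change -0.85 ± 0.14, edgeR adjusted p = 0.000309). The member that was higher, SAG1, is the alpha-agglutinin of mating, at 369 CPM in P47T and 280 CPM in E49K. FLO genes share repeats with one another, so reads may be exchanged among them.

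Genes for carbon sources other than glucose were lower in P47T for 9 of 35 tested members (25.7%) and higher for 2, with a median of -0.22. JEN1, the lactate and pyruvate transporter, had 14.4, 12.9 and 10.2 CPM in P47T, against 19.7, 19.3 and 20.2 CPM in E49K. Much of the list was scarce. PDH1, of the propionate pathway, averaged 4.69 CPM in P47T and 8.63 CPM in E49K, and MLS1, malate synthase of the glyoxylate cycle, 2.61 CPM in P47T and 5.11 CPM in E49K. Without P47T replicate 1 the lower count was 6, and it was also 6 without P47T replicate 2. Hexose transporters were lower for 4 of 18 tested and higher for none, but the lower count was 1 without P47T replicate 3 or E49K replicate 3, and 2 without P47T replicate 2 or E49K replicate 1. The 18 passed a filter on low counts that ran over all 18 libraries. In a fit to only the 6 libraries of P47T and E49K, 14 were tested, of which 2 were lower and 1 higher.

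Genes of the citric acid cycle and respiratory chain were called higher in P47T for 9 of 48 (18.8%) and lower for none, with a median of 0.10. COX4, a subunit of cytochrome c oxidase, had 117, 108 and 97.6 CPM in P47T, against 76.6, 76.7 and 83.4 CPM in E49K. With library totals alone 3 were higher and 1 lower, and without E49K replicate 2 the count was 4. In glycolysis and fermentation 3 of 21 were lower (14.3%) and 1 higher (4.76%). TDH1, a glyceraldehyde-3-phosphate dehydrogenase with near-identical copies, averaged 1566 CPM in P47T and 2306 CPM in E49K (log2 fold change -0.56 ± 0.12, edgeR adjusted p = 0.00362). None of 19 glycogen and trehalose genes was called with the edgeR fit to all 18 libraries, in which 2 were lower at an unadjusted p under 0.05, and DESeq2 called 1 lower.

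Meiosis and sporulation genes, silent or nearly so in growing cells, were lower in P47T for 13 of 43 members that passed the filter on low counts, out of 51 in the table, and higher for 2. SPO74, of the meiotic spindle pole body, had 0.859, 0.995 and 1.40 CPM in P47T, against 3.56, 3.70 and 3.93 CPM in E49K. CDA1, a chitin deacetylase of the spore wall, averaged 1.94 CPM in P47T and 5.23 CPM in E49K. The exceptions included SPO22, which is needed for crossovers, at 16.8, 16.4 and 14.7 CPM in P47T, against 9.82, 8.73 and 9.29 CPM in E49K. Without P47T replicate 1 the lower count was 7, and without E49K replicate 1 it was 8. The filter ran over all 18 libraries, and in a fit to only the 6 libraries 37 members were tested, 10 lower and 2 higher.

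In the cell cycle, G1 cyclins and other targets of the SBF and MBF activators were higher for 6 of 34 (17.6%) and lower for 2 (5.88%). The median was 0.04. Besides HO, CLN2, a G1 cyclin, had 38.4, 41.8 and 40.7 CPM in P47T, against 26.97, 30.3 and 27.8 CPM in E49K (log2 fold change 0.51 ± 0.09, edgeR adjusted p = 0.000365). CLN1, its paralog, averaged 32.7 CPM in P47T and 25.8 CPM in E49K, a call (edgeR adjusted p = 0.0200) lost without P47T replicate 2, E49K replicate 1 or E49K replicate 3, at adjusted p of 0.0771, 0.103 and 0.0835. The cyclin PCL1 did not pass (edgeR adjusted p = 0.612). Without P47T replicate 2 the higher count of this list was 3, and without E49K replicate 1 it was 4. None of 19 replication licensing genes was called with the edgeR fit to all 18 libraries or with DESeq2. At an unadjusted p under 0.05 in edgeR, 4 of them were higher and 2 lower, and 1 was called lower without P47T replicate 3.

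In the DNA damage list 5 of 30 were lower in P47T (16.7%) and 2 higher (6.67%). HUG1, an inhibitor of ribonucleotide reductase that responds to damage, had 1.34, 0.995 and 1.54 CPM in P47T, against 5.83, 3.98 and 4.31 CPM in E49K. WT averaged 1.34 CPM and rad6Δ 4.91 CPM, and the log2 fold change of HUG1 was -1.86 ± 0.28 (edgeR adjusted p = 0.000121). RNR4, a small subunit of ribonucleotide reductase, averaged 554 CPM in P47T and 681 CPM in E49K, while RNR1, the large subunit, averaged 163 CPM in P47T and 126 CPM in E49K. RNR1 was not called in 3 of the 6 fits that left out 1 library. The lower count of the list was 3 without P47T replicate 3, and the higher count was 0 without P47T replicate 2 or E49K replicate 1.

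Pheromone response genes were called higher for 3 of 32 and lower for 4 (2 without P47T replicate 1), with a median of -0.02. FAR1, which arrests the cycle in response to pheromone, averaged 134 CPM in P47T and 95.5 CPM in E49K, and STE4, the G protein beta subunit, 96.6 CPM in P47T and 72.0 CPM in E49K. Of the genes lying no more than 20 kb from a chromosome end, 21 of 135 were lower (15.6%) and 16 higher (11.9%), ARN1 and ARN2 among the lower, with a median of -0.08. The higher count was 9 to 11 when any 1 library was left out, and the lower count was 14 without P47T replicate 2.

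Ergosterol synthesis genes were higher for 10 of 28 (35.7%) and lower for 2, with a median of 0.12. CYB5, the cytochrome b5 that supplies electrons to sterol enzymes, had 36.1, 41.5 and 35.7 CPM in P47T, against 24.1, 29.0 and 23.7 CPM in E49K (log2 fold change 0.56 ± 0.10, edgeR adjusted p = 0.000843). ERG26, ERG8 and ERG3, enzymes of the pathway, had log2 fold changes of 0.37, 0.41 and 0.44. Only 4 were higher without E49K replicate 1 and 6 without P47T replicate 1.

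Chaperones and co-chaperones were higher for 7 of 25 (28.0%) and lower for none, with a median of 0.11. SSA4, a stress-induced Hsp70, had 214, 189 and 201 CPM in P47T, against 142, 138 and 166 CPM in E49K (log2 fold change 0.44 ± 0.07, edgeR adjusted p = 0.000381). SIS1, an Hsp40, averaged 301 CPM in P47T and 227 CPM in E49K. In fits that left out 1 library 6 or 7 were higher. Proteasome genes were called for 1 of 34. The general stress list went both ways, with 5 of 36 higher and 4 lower. There were 3 higher without P47T replicate 3 or E49K replicate 3, 2 lower without P47T replicate 2 or E49K replicate 1, and 7 lower without E49K replicate 2. CTT1, the cytosolic catalase, had 187, 178 and 207 CPM in P47T, against 125, 107 and 109 CPM in E49K (log2 fold change 0.74 ± 0.09, edgeR adjusted p = 8.35e-06). HSP12, a membrane-associated stress protein, had 236, 217 and 214 CPM in P47T, against 354, 289 and 364 CPM in E49K (log2 fold change -0.60 ± 0.10, edgeR adjusted p = 0.000374). For CTT1 it was E49K that was lower than WT (180 CPM) and P47T that lay near it, and for HSP12 it was P47T that was lower than WT (331 CPM) and E49K that lay near it.

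Biosynthetic lists under nutrient control also went both ways. Amino acid synthesis genes under Gcn4 were higher for 7 of 56 and lower for 5 (3 without P47T replicate 2, E49K replicate 2 or E49K replicate 3). HIS1, the first enzyme of histidine synthesis, averaged 600 CPM in P47T and 428 CPM in E49K, and SER3, the first of serine synthesis, 844 CPM in P47T and 1091 CPM in E49K. In the purine and one-carbon list 7 of 22 were higher (31.8%) and 4 lower (18.2%), although its median was -0.13. IMD3, an IMP dehydrogenase of guanine nucleotide synthesis, averaged 384 CPM in P47T and 290 CPM in E49K, while IMD2, its inducible relative, averaged 18.5 CPM in P47T and 28.5 CPM in E49K. The IMD genes are near-identical, so their split is uncertain. Without E49K replicate 1 the purine list had 4 higher and 2 lower, and without P47T replicate 2 it also had 2 lower.

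Genes under nitrogen catabolite repression were lower for 5 of 28 (17.9%) and higher for 1 (3.57%), with a median of -0.15. PRB1, vacuolar proteinase B, had 532, 533 and 544 CPM in P47T, against 940, 859 and 855 CPM in E49K (log2 fold change -0.72 ± 0.09, edgeR adjusted p = 7.14e-06). WT averaged 730 CPM, between P47T and E49K. The lower count was 3 without P47T replicate 3 or E49K replicate 2. Sulfur amino acid genes were lower for 6 of 31 and higher for 3, and the lower count was 2, 2, 2 and 1 without P47T replicate 1, P47T replicate 3, E49K replicate 1 and E49K replicate 3. The higher count was 1 without P47T replicate 1, without E49K replicate 1 or with library totals alone. SAM2, S-adenosylmethionine synthetase, averaged 776 CPM in P47T and 600 CPM in E49K.

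No gene encoded in mitochondria (28 tested) and no nuclear noncoding gene (86 tested) was called with the edgeR fit to all 18 libraries. At an unadjusted p under 0.05, 1 mitochondrial gene was higher, and 1 noncoding gene was higher and 1 lower. DESeq2 called 1 mitochondrial gene higher and no noncoding gene. In other edgeR fits, 2 mitochondrial genes were higher with only the 6 libraries and 1 with library totals alone, and 2 noncoding genes were lower without P47T replicate 1 and 1 without P47T replicate 3. The galactose list had 1 of 9 called lower. Of the mating-type lists, 1 of 5 alpha-specific genes was called, SAG1, and none of 5 a-specific genes.

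The genes that differed between P47T and E49K were also read beside the null strains, which share no library with them. Of the 1000 called genes, 650 (65.0%) were also among the 2796 called in rad6Δ over WT (49.7% of all tested), and they made up 23.3% of that list. Of the 650, 596 (91.7%) went the opposite way: higher in P47T than in E49K and lower in rad6Δ than in WT (310 genes), or lower in P47T and higher in rad6Δ (286). Over all 5630 genes tested, called or not, 66.5% had opposite signs. Across all 5630 genes the correlation of the fold changes was -0.44 (Pearson), a description over genes, which are not independent replicates. In bre1Δ over WT 2501 genes were called (44.4%), of which 595 were shared, 59.5% of the P47T and E49K list and 23.8% of the bre1Δ list. Of these 520 (87.4%) went the opposite way, against 62.3% with opposite signs over all genes, and the correlation over all genes was -0.48. Both null strains were compared with the same WT libraries.

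Meiosis genes ran opposite to the null strains in 14 of 14 shared calls in rad6Δ and 15 of 15 in bre1Δ. DNA damage genes did so in 7 of 7 shared calls in rad6Δ and 6 of 6 in bre1Δ. These counts lie near the shares over all shared calls, 91.7% and 87.4%, and show nothing particular to either list. For thiamine, 10 of 10 shared calls were opposite to bre1Δ, but 4 of 6 to rad6Δ. THI4 was among the genes opposite to both null strains, with means of 10.9 CPM in rad6Δ, 31.2 CPM in bre1Δ and 5.46 CPM in WT.

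Of 9 iron genes called both in P47T over E49K and in rad6Δ over WT, 7 went the same way, lower in P47T than in E49K and lower in rad6Δ than in WT. In bre1Δ over WT 3 iron genes were shared, of which 2 went the opposite way and 1 the same way. FIT2 averaged 40.6 CPM in rad6Δ and 92.0 CPM in WT, and TIS11 22.6 CPM in rad6Δ and 54.2 CPM in WT. Of 5 shared zinc genes, 3 went the same way as in rad6Δ, VEL1 and ZPS1 among them, and 2 the opposite way, while 3 of 3 shared with bre1Δ were opposite. Of ribosomal protein genes, 20 of 22 shared calls were opposite to rad6Δ, and 32 of 33 went in the same direction as in bre1Δ. Of the 63 genes called at least 2-fold, 49 were shared with each null strain, of which 45 were opposite to rad6Δ and 49 were opposite to bre1Δ.

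**Figure D5:**
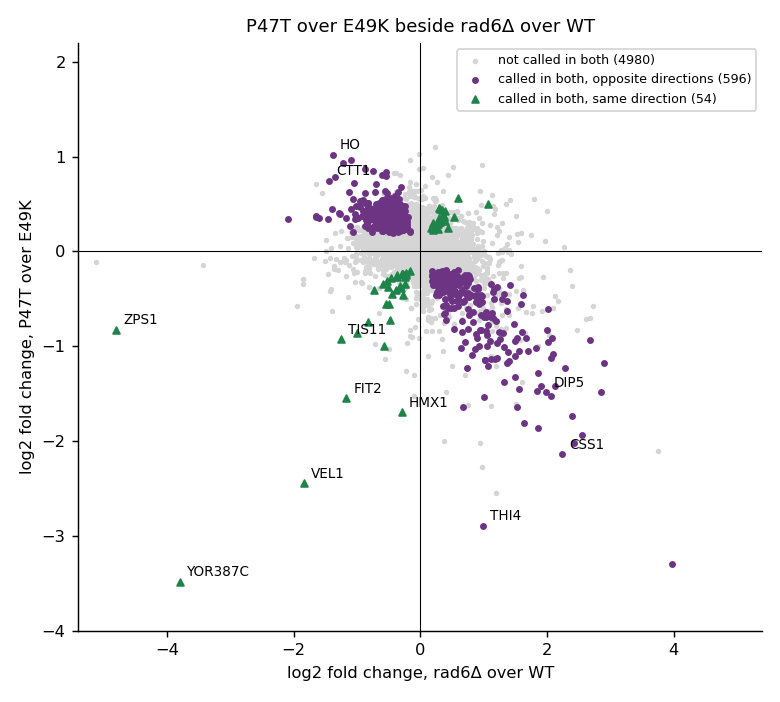
Log2 fold change of P47T over E49K (y axis) against that of rad6Δ over WT (x axis), 1 point for each of 5630 genes tested. Purple points are the 596 genes called in both with opposite directions, green triangles the 54 called in both with the same direction, among them FIT2, TIS11, HMX1, VEL1 and ZPS1 at the lower left.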

How the data were processed

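RNA of 18 libraries (6 strains, 3 cultures each grown separately, per the labels) was made with a stranded poly(A) kit and read as single 50-base reads. The deposited file gives raw counts, whole-number reads per gene and library. The submitters' processing notes name cutadapt 1.16, STAR 2.6.1b, featureCounts 1.6.3 (Subread) and DESeq2 1.20, with sacCer3 and R64. How strand and multiply mapped reads were handled is not stated in the labels or headers, so genes with near-identical copies, overlapping genes and antisense pairs are uncertain. The deposited rlog values were not used. The protocols give culture densities of 0.8 to 1.0 and of 0.7, and which applied is not settled.

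The table held 5746 genes, of which 5633 matched R64 by locus tag, 90 by symbol and 23 not at all. filterByExpr left 5630. One edgeR 4.0.16 model (R 4.3.3, TMM, robust quasi-likelihood, 12 residual degrees of freedom) was fitted to all 18 libraries, and the contrast was tested two-sided with Benjamini-Hochberg adjustment over all tested genes at 0.05. The dispersion corresponded to a coefficient of variation of 8.55%. CPM are counts over TMM-scaled totals, and standard errors were computed from each log2 fold change and the F value of its test. The script was tested on simulated data.

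Named were the 12 highest and 12 lowest fold changes of called genes that reached 10 CPM on average in 1 strain or both and whose values did not overlap. RAD6, BRE1 and genes known only by a systematic name were left out of these. Up to 4 called members of each of 37 lists with the lowest adjusted p and a fixed set (RAD6, BRE1, UBR1, CUP9, PTR2, INO1, ZPS1, ZRT1, HTB1, HTB2, PHO84, CLN1, PCL1, TRP1) were also named. TRP1, the plasmid's marker, did not pass (edgeR adjusted p = 0.873). Comparison, lists and rule were chosen with earlier results of these data known. Alternatives were library totals, RLE scaling, no filter, only the 6 libraries, no noncoding or mitochondrial genes, a replicate block, DESeq2 1.42.0 and leaving out each library. Pairs of libraries of 1 strain were compared by a chi-square test of their counts, which gave 9.60 to 41.3 per degree of freedom, more than counting noise alone, so no pair looked like repeat deposits of 1 library. Same-numbered libraries of P47T and E49K did not deviate together.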

Additional observations from a re-analysis of the deposited data

How the results depend on the processing

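Of 134 named genes, 125 were called and 95 of them were called in each of 13 alternatives, while 29 lost the call in at least 1 and none reversed. HXT10 and HXT13 were not tested with only the 6 libraries. With library totals alone, 258 genes were higher in P47T, against 530, and 571 were lower. The median log2 fold change over all tested genes was -0.0569 with library totals and 0.00669 with TMM, a shift toward lower values in P47T. What lies behind that shift was not tested. With 1 library left out, 567 to 815 genes were called, 279 to 437 higher and 288 to 378 lower. Without P47T replicate 1 the counts were 663 called, 351 higher and 312 lower, and without E49K replicate 1 they were 567, 279 and 288. Without E49K replicate 3, 337 were higher. At least 2-fold differences numbered 44 to 71 in those fits. DESeq2 called 1030 genes (554 higher, 476 lower) and kept 95.8% of the calls. Replicate numbers did not pair the libraries (correlations of the deviations -0.35, 0.18 and -0.28 for numbers 1, 2 and 3), and with a replicate block 884 genes were called, 460 higher and 424 lower. Between libraries of unlike number these correlations ran from -0.26 to 0.45, the highest for P47T replicate 3 with E49K replicate 1. Differences of scarce transcripts, which were most of the 2-fold ones, are limited by depth and by 3 cultures a strain.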
